A study of Mus musculus with 6 samples.

Results

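The cell proliferation genes described here are 32 genes that dividing cells use to copy their DNA and to divide, 13 of S phase and 19 of G2 and mitosis, listed by gene symbol. In the stomach lining of mice aged 3 months, 30 of the 32 had a named probe on the array, 64 probes in all of the 45281 in the table. Total RNA came from the fundic gastric mucosa of 3 Lasp1 knockout samples and 3 wild type samples of the C57Bl/6Ncr strain, each on 1 Illumina bead array. Lasp1 encodes an actin-binding protein with LIM and SH3 domains, and the study asked how its deletion alters mRNA levels in this tissue. The labels state no treatment, promoter or cell type for the deletion. Whether the 3 samples of a genotype came from 3 animals is not stated, so the spread behind every p-value may not be that between animals.

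Cells of the gastric glands are replaced from a narrow zone of dividing progenitors, the isthmus, from which daughter cells move up to become surface mucous cells or down to become neck, parietal and chief cells. Genes for DNA copying are switched on by E2F factors as cells enter S phase, whereas genes for chromosome segregation are switched on later, from G2 into mitosis, largely through promoters that carry a CHR element and CCAAT boxes. Most cells of the mucosa are not dividing, so these mRNAs report on a small share of the tissue. In RNA from whole mucosa, fewer dividing cells and less RNA per dividing cell cannot be told apart.

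Values are the authors' probe intensities on a linear scale, with a median of 1000 on every array. Background was not subtracted, and 26 probes of Y-linked genes, on arrays where Xist read 85558 to 87993 in knockout and 55746 to 88070 in wild type samples, reached at most 1212. Intensities near 1000 are therefore close to background, and ratios of dim probes are understated. Differences are between arrays for a given probe. Probe brightness served only to choose probes and promoters, and a summed level is dominated by its brightest probes. Each log2 difference is the knockout mean minus the wild type mean.

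The samples read as gastric mucosa. All 8 fundic markers with a probe passed the filter on dim probes (mean above that of the median probe), for example Atp4b, the beta subunit of the proton pump, at 464845 to 530793 in knockout and 454536 to 532362 in wild type samples. Of 5 lymphocyte markers with a probe, only the T cell gene Cd3e passed it (1354 to 1521 in knockout, 1414 to 1605 in wild type). Lasp1 read 88521, 111002 and 89823 on the knockout arrays, against 177315 to 275068 on the wild type arrays, by its brightest probe (log2 -1.30, SE 0.21, unadjusted p = 0.000412, limma adjusted p = 0.994). A second Lasp1 probe read 6674 to 8652 in knockout, against 13074 to 31441 in wild type, and the remaining probe lay near background. Signal for the targeted gene remained on the knockout arrays, and where these probes lie relative to the deleted sequence is not given in the sources used here. Markers of other tissues were uneven across arrays. The summed level of 11 squamous markers was 1177225 on knockout replicate 1 and 665277 on wild type replicate 2, with at most 34338 on the other 4 arrays. Pancreatic acinar markers (7 genes) summed to 3920212 on wild type replicate 3, 369058 on knockout replicate 3 and at most 119510 elsewhere. Smooth muscle markers (6 genes) summed to 233489 on knockout replicate 1, against at most 103079 elsewhere. Over all kept probes, wild type replicate 3 lay 0.27 below the mean of the arrays on the log2 scale at the median, and the other 5 arrays lay between -0.01 and 0.12. For these reasons results are given with all arrays and without wild type replicate 3 and knockout replicate 1.

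No proliferation gene passed the test between genotypes with all 6 arrays. Among the members, 24 genes (11 of S phase, 13 of G2 and mitosis) had a probe whose mean log2 intensity lay above that of the median probe, a filter that kept 22640 probes, and their 43 kept probes gave 0 calls by limma with Benjamini-Hochberg adjustment over all kept probes (adjusted p = 0.994 for each gene's brightest probe). Over all kept probes 0.00883% were called. At an unadjusted p under 0.05 there were 0 of the 24 members, against 1.73% of all kept probes. The genotype groups overlapped for the brightest probe of all 24 members, where 6.17% of all kept probes had every knockout array above every wild type array and 1.02% every knockout array below. A dimmer kept probe of Tyms had groups that did not overlap, near background (1026, 1158 and 1114 in knockout, against 1000, 899 and 898 in wild type).

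The differences themselves were small and positive. All 24 kept members had a mean log2 value higher in knockout, by 0.04 to 0.52 with a median of 0.21, and so had 76.9% of all kept probes, whose median difference was 0.10. After quantile normalization 17 of the 24 were higher, with a median of 0.05, against 51.2% of all kept probes. By phase, the median was 0.26 for the G2 and mitosis members and 0.17 for the S phase members (0.11 and 0.00 after quantile normalization). Bright probes were higher in general: above the upper quartile of brightness the median over all probes was 0.17. Among the 19 members there it was 0.21, with 0.27 for 10 of G2 and mitosis and 0.17 for 9 of S phase. Within each genotype the arrays stood further apart than these averages, in an order that depended on the phase.

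**Figure D1:**
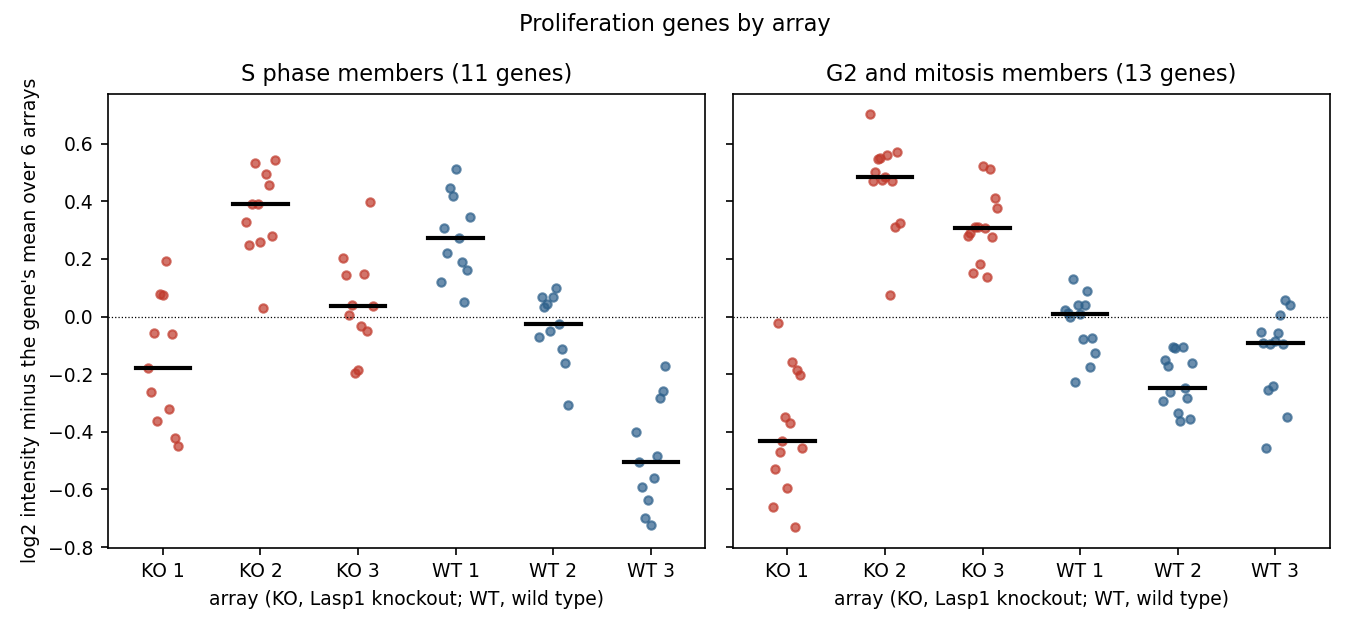
Log2 intensity of each kept member on each array, minus that gene's mean over the 6 arrays (y axis), for the 11 S phase members (left) and the 13 G2 and mitosis members (right). Each point is 1 gene by its brightest probe, red for knockout and blue for wild type arrays, and black bars are medians. In the right panel knockout replicate 1 is lowest (median -0.43) and knockout replicates 2 and 3 are highest (0.48 and 0.31), with wild type between -0.25 and 0.01. In the left panel wild type replicate 3 is lowest (-0.50).

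The kinases that start and steer mitosis shared the place of the knockout arrays relative to wild type, with replicates 2 and 3 above all wild type arrays and replicate 1 below them. Cdk1, the kinase that cyclin B activates to drive entry into mitosis, read 3436, 6866 and 6054 on knockout replicates 1 to 3, and 4997, 4462 and 4652 on wild type replicates 1 to 3. Plk1, the polo-like kinase of centrosomes and spindle, read 3656, 6966 and 5838 in knockout, against 4471, 3670 and 4537 in wild type. For both genes the wild type arrays lay close together, knockout replicates 2 and 3 lay above all of them and knockout replicate 1 lay below all of them, though for Plk1 it was level with wild type replicate 2. Aurka, the aurora kinase of the centrosome, read 2783, 5500 and 4658 in knockout and 3209, 3489 and 3512 in wild type samples. Aurkb, the aurora kinase of the chromosomal passenger complex, read 2322, 4110 and 3357 in knockout and 3044, 2739 and 2504 in wild type samples. The log2 differences were 0.15 (SE 0.26) for Cdk1, 0.33 (SE 0.25) for Plk1, 0.29 (SE 0.25) for Aurka and 0.21 (SE 0.22) for Aurkb, averages of a low and a pair of high knockout arrays.

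Genes of the spindle and of chromosome structure mostly had the same place of the knockout arrays. Top2a, the topoisomerase that untangles sister chromosomes, read 2736, 7036 and 5252 in knockout, against 4398, 3530 and 4163 in wild type, or 5008 ± 2160 and 4030 ± 449 (mean ± SD, n = 3 each). Its ratio of highest to lowest array, 2.57, was the largest of any kept member, and its second kept probe differed by 0.03 on the log2 scale. Nusap1, a microtubule-binding protein of the spindle, read 4335, 9972 and 10272 in knockout, against 7652, 6059 and 6733 in wild type. Birc5, survivin, the passenger complex subunit that holds Aurkb at centromeres, read 2797, 5907 and 6065 in knockout, against 4254, 3348 and 3980 in wild type. On all 3 of its kept probes knockout replicate 1 was lowest and knockout replicates 2 and 3 lay above every wild type array. Tpx2, which activates Aurka on spindle microtubules, read 1500, 2580 and 2671 in knockout, against 1888, 1842 and 2119 in wild type. Kif11, the kinesin that pushes spindle poles apart, read 1300, 1831 and 1789 in knockout, against 1309, 1215 and 1537 in wild type, so its knockout replicate 1 lay within the wild type range.

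The smallest p-values among the members were those of Cdca3 and Cdc20. Cdca3, which promotes mitotic entry through degradation of the inhibitory kinase Wee1, read 5643, 9649 and 8645 in knockout, against 6180, 5076 and 5108 in wild type samples, or 7979 ± 2084 and 5455 ± 628 (n = 3 each). The log2 difference was 0.52 (SE 0.22, 1.43-fold), with limma adjusted p = 0.994 (unadjusted p = 0.0504) and an exact two-sided permutation p of 0.2, where 3 against 3 arrays cannot go below 0.1. Cdc20, which activates the anaphase-promoting complex, read 3682, 5302 and 4155 in knockout, against 3737, 3322 and 2729 in wild type (log2 0.42, SE 0.19, unadjusted p = 0.0594). Both had 2 knockout arrays above all wild type arrays and knockout replicate 1 inside the wild type range. The probes of Cdc20 were not alike: on 2 of its 4 kept probes knockout replicate 1 was the lowest array, and the log2 differences ran from 0.02 to 0.42. Of the checkpoint and exit genes, Bub1b, the protein BubR1, read 2638, 5341 and 4539 in knockout, against 4003, 3049 and 3062 in wild type (log2 0.26), and its second kept probe differed by -0.02. Ube2c, a ubiquitin-conjugating enzyme of the anaphase-promoting complex, was near background at 893, 1049 and 1097 in knockout, against 1025, 927 and 1001 in wild type.

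For the G2 and mitosis members together, knockout replicates 2 and 3 lay above all 3 wild type arrays for 13 of 13 kept genes, against 17.4% of all kept probes. Knockout replicate 1 lay below all 3 wild type arrays for 10 of 13 (10.1% of all kept probes), and 10 of 13 had both features at once (2.76%). Knockout replicate 2 was the highest array for 9 of 13 (21.4%) and knockout replicate 3 for the other 4 (12.3%). The position of wild type replicate 3 depended on the scaling. For these genes its median deviation from the mean of the arrays was -0.09 as deposited, and quantile normalization made it 0.31, level with knockout replicate 3, so that after quantile normalization 8 of 13 had knockout replicates 2 and 3 above every wild type array (14.5%) and 12 of 13 had knockout replicate 1 below every wild type array (27.2%). These patterns were noticed in the same 6 arrays that they describe, and the arrays of a genotype are not groups, so no test was made of them.

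**Figure D2:**
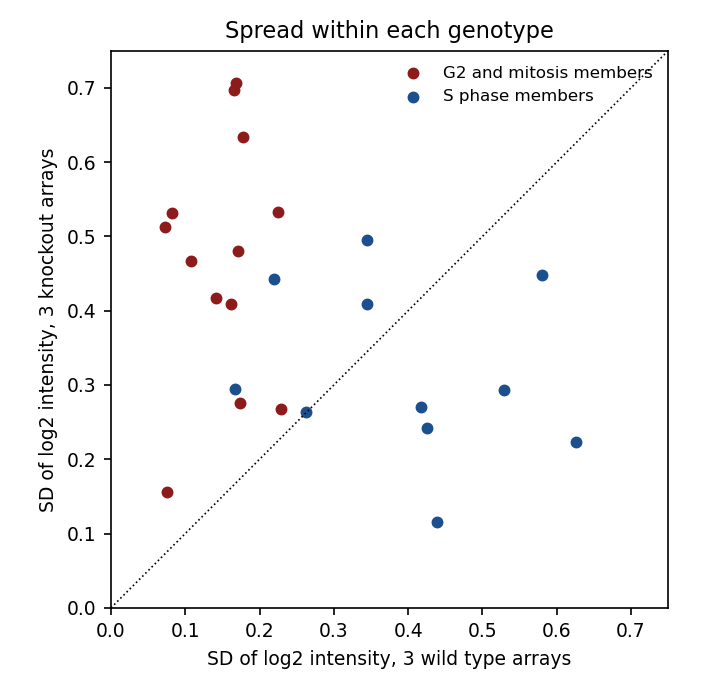
SD of log2 intensity as deposited, over the 3 knockout arrays (y axis) against that over the 3 wild type arrays (x axis). Each point is 1 kept member, and the line of equal spread is dotted. All 13 G2 and mitosis members lie above the line (median SD 0.48 in knockout and 0.17 in wild type), and 5 of 11 S phase members do (medians 0.29 and 0.42).

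The spread within a genotype also differed by phase. The SD of the log2 values was larger in knockout than in wild type samples for 13 of 13 G2 and mitosis members and for 5 of 11 S phase members, against 31.7% of all kept probes. Median SDs were 0.48 in knockout and 0.17 in wild type for the G2 and mitosis members, 0.29 and 0.42 for the S phase members, and 0.15 and 0.23 over all kept probes. With 3 arrays in each group an SD is itself poorly known, and this difference was not tested. These SDs are of the deposited values only, and the wild type spread depended on the scaling. For the G2 and mitosis members, median deviations on wild type replicates 1 to 3 were 0.01, -0.25 and -0.09 as deposited. After quantile normalization they were -0.18, -0.24 and 0.31.

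Promoters of a few members are shown because the phases are known to use different promoter elements. They are the members with the brightest kept probe and with the largest ratio of highest to lowest array in each phase. Each run covers 250 bases before to 50 after the RefSeq start in GRCm38.p6, on the strand of the gene. Capitals mark every match, on either strand, to a CHR element, a CCAAT box or an E2F core, and overlapping matches run together. The CHR element was searched as TTTGAA and in a second form spelled TTCGAA, which reads the same on both strands. The E2F core was searched as TTCCCGC, in a form with a changed middle spelled TTCGCGC, in another spelled TTGCCGC and in a last form spelled TTGGCGC.
Top2a: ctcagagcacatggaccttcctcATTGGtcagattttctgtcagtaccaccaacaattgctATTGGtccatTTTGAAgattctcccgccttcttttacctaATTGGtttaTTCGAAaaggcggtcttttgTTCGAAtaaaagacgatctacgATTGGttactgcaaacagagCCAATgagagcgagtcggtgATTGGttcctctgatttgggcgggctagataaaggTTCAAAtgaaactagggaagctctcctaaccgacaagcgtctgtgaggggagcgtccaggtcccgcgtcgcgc
Nusap1: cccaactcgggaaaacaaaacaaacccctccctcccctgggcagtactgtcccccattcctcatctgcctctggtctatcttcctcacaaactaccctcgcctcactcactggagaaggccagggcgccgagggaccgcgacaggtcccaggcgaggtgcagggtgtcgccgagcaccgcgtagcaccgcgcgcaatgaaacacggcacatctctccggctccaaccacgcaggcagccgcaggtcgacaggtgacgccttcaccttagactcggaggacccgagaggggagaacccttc
Mcm6: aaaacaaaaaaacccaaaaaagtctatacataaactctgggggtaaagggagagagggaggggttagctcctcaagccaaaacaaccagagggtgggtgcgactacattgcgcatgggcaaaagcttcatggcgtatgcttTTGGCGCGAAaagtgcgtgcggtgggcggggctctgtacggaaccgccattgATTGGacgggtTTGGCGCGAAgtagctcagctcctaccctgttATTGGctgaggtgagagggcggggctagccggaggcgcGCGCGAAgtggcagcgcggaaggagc
Mcm7: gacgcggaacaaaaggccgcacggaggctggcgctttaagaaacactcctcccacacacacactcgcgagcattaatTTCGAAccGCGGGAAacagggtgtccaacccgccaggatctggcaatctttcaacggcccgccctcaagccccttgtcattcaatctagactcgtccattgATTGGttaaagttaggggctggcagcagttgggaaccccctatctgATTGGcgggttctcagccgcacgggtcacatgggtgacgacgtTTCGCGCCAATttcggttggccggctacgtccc

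The 4 windows differ in what they hold. Top2a, at chr11:99024140-99024439 on the minus strand, had 4 CHR matches, the nearest beginning 23 bases before the start, and 6 CCAAT boxes. Nusap1, at chr2:119618048-119618347 on the plus strand, had no match to any of the 3 motifs, which says only that these letters are not in this window. Mcm6, at chr1:128359656-128359955 on the minus strand, had 5 E2F matches, some overlapping, and 2 CCAAT boxes, and Mcm7, at chr5:138171834-138172133 on the minus strand, had 1 CHR match, 3 CCAAT boxes and 3 E2F matches, of which the last pair overlap each other and a CCAAT box. Of the 28 members with a listed promoter, a CHR match occurred in 12 of 16 of G2 and mitosis and 2 of 12 of S phase, against 19.4% of all 27025 promoters of the same length. An E2F match occurred in 3 of 16 and 7 of 12, against 9.69%, and a CCAAT box in 14 of 16 and 8 of 12, against 37.9%. A match describes the letters and is not a measured binding site.

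The S phase members began with the helicase that unwinds DNA at replication origins, built of the Mcm2 to Mcm7 subunits. Mcm2 read 2779, 3952 and 3617 on knockout replicates 1 to 3, against 3416, 2992 and 2385 on wild type replicates 1 to 3 (3449 ± 605 and 2931 ± 518, log2 0.23, SE 0.19). Mcm5 read 6861, 12757 and 9070 in knockout, against 12023, 9085 and 5436 in wild type (log2 0.14, SE 0.34). Mcm6 read 23238, 28861 and 19217 in knockout, against 29415, 21258 and 14153 in wild type (log2 0.18), and wild type replicate 3 was the lowest array on each of its 3 kept probes. The other subunits gave the same low array: Mcm4 read 14957, 20398 and 15638 in knockout, against 18145, 15946 and 10326 in wild type, and Mcm7 read 4007, 4551 and 3345 in knockout, against 5427, 3991 and 2306 in wild type. Mcm3, at 1383, 1970 and 1833 in knockout and 2053, 1738 and 1169 in wild type, was close to background on wild type replicate 3. For every subunit wild type replicate 3 lay below all knockout arrays, and wild type replicate 1 lay above at least 1 of them.

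Pcna, the sliding clamp of the replication fork, read 4162, 3724 and 3565 in knockout, against 4399, 3900 and 2470 in wild type (log2 0.13, SE 0.22). Its knockout arrays lay close together, with a mean of 3817 ± 309 (n = 3), and wild type replicate 3 was again the low array. Genes that supply deoxynucleotides were not alike. Rrm1, the large subunit of ribonucleotide reductase, read 5529, 9737 and 7642 in knockout, against 7875, 6779 and 4936 in wild type (log2 0.21). Rrm2, the small subunit, was dim at 1339, 1915 and 1349 in knockout, against 1446, 1290 and 1148 in wild type (log2 0.23). On these probes of both genes, knockout replicate 2 was the highest array and wild type replicate 3 the lowest. The second kept probe of Rrm2 read 982, 1541 and 1492 in knockout, against 1316, 1223 and 1216 in wild type, with knockout replicate 1 lowest and knockout replicates 2 and 3 above every wild type array. Tyms, thymidylate synthase, read 4903, 7970 and 8641 in knockout, against 7340, 5876 and 5492 in wild type (log2 0.17), and its 5 kept probes gave log2 differences from -0.03 to 0.24. Tk1, thymidine kinase, read 3822, 7598 and 5357 in knockout, against 6636, 4222 and 4628 in wild type (log2 0.09). Tyms and Tk1 were lowest on knockout replicate 1, and Tyms had knockout replicates 2 and 3 above every wild type array, as most G2 and mitosis members had.

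Over the 11 kept S phase members, wild type replicate 3 was the lowest of the 6 arrays for 9, against 64.9% of all kept probes, and for 5 after quantile normalization, against 26.5%. Knockout replicates 2 and 3 lay above all wild type arrays for 2 of 11 genes, Mcm2 and Tyms, against 17.4% of all kept probes. After quantile normalization they did so for 4 of 11, against 14.5%. Knockout replicate 1 lay below all wild type arrays for 2 of 11, Tyms and Tk1, against 10.1% of all kept probes. After quantile normalization it did so for 6 of 11, against 27.2%. Wild type replicate 1 was the highest array for 4 of 11, against 30.4% of all kept probes, and knockout replicate 2 for 6, against 21.4%. Median deviations of the S phase members from the mean of the arrays were -0.18, 0.39 and 0.04 on knockout replicates 1 to 3, and 0.27, -0.03 and -0.50 on wild type replicates 1 to 3. After quantile normalization they were -0.33, 0.28 and 0.04 in knockout and 0.10, -0.01 and -0.17 in wild type. For the G2 and mitosis members the medians were -0.43, 0.48 and 0.31 in knockout and 0.01, -0.25 and -0.09 in wild type samples, and after quantile normalization -0.57, 0.40 and 0.31 in knockout and -0.18, -0.24 and 0.31 in wild type. Knockout replicate 2 was thus highest and knockout replicate 1 below 0 in both phases and under both scalings. Wild type replicate 3 was the lowest array for S phase genes as deposited, and after quantile normalization it was high for G2 and mitosis genes.

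**Figure D3:**
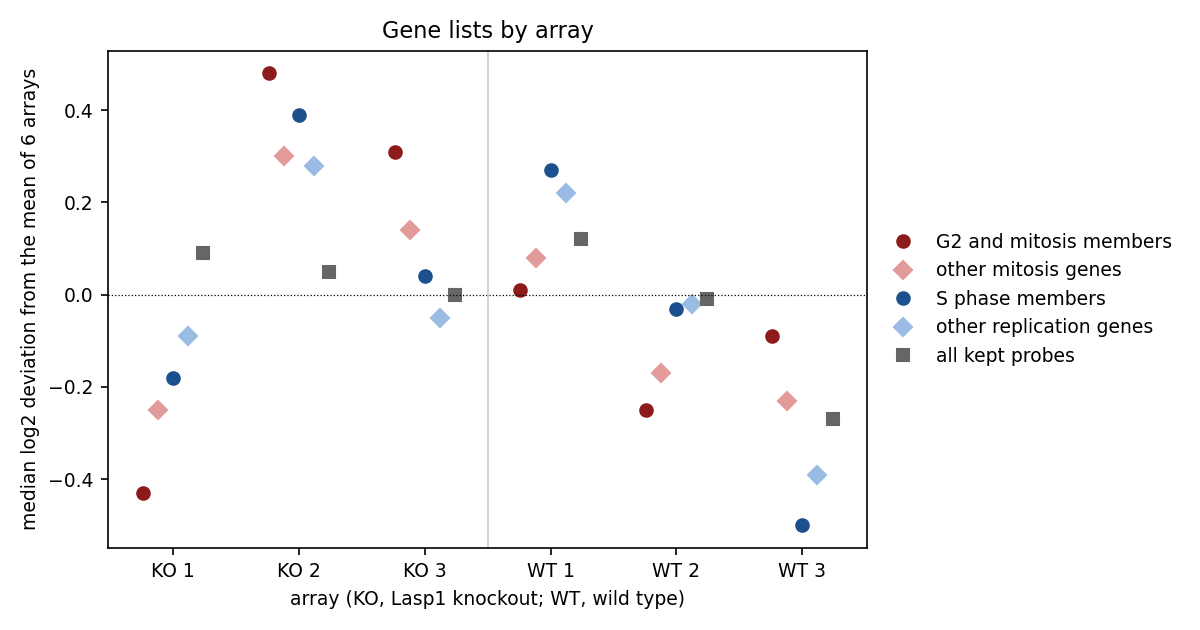
Median log2 deviation from the mean of the 6 arrays (y axis) for 5 lists on each array (x axis, knockout left, wild type right). The other mitosis genes and other replication genes do not include members. The G2 and mitosis members are at -0.43 on knockout replicate 1 and 0.48 on knockout replicate 2, and all kept probes stay between -0.27 and 0.12.

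Further genes of both processes gave the same picture in part. Of 25 other mitosis genes, 19 were kept, 17 higher on average and 2 lower in knockout, where 76.9% of all kept probes were higher. Of these genes 0 passed (adjusted p = 0.994 by limma for the smallest), and the median log2 difference was 0.19, against 0.10 over all kept probes. Knockout replicates 2 and 3 lay above every wild type array for 11 of the 19, against 17.4% of all kept probes. Knockout replicate 1 lay below every wild type array for 10 (10.1%), and 7 had both features (2.76%). The smallest p-values were those of Cenpa, the centromeric histone (28842, 31568 and 30732 in knockout, against 29906, 21032 and 19578 in wild type), Anln (log2 0.34), Incenp, the scaffold of the passenger complex (0.34), and Prc1, which bundles midzone microtubules (0.39). Of 24 other replication genes, 19 were kept, 15 higher on average and 4 lower in knockout (76.9% of all kept probes higher). Their median was 0.09, with 0 passing. The smallest p-values were those of Chaf1a, a histone chaperone subunit (log2 0.28), Mcm10 (0.32), Gmnn, the licensing inhibitor geminin (0.11), and Gins1 (0.11). For 2 of these 19 knockout replicates 2 and 3 lay above every wild type array, against 17.4% of all kept probes. Knockout replicate 1 lay below every wild type array for 6 (10.1%), and 2 had both features (2.76%). After quantile normalization knockout replicate 1 was below for 11 of 19 replication and 15 of 19 mitosis genes (27.2%).

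Genes that act on entry into the cycle gave no call either. Beside the counts that follow, 76.9% of all kept probes were higher in knockout, and 51.2% after quantile normalization. Of 8 G1 cyclins and kinases 7 were kept, all higher on average, with a median of 0.25 (0.08 after quantile normalization) and 0 passing. On leaving out wild type replicate 3 and knockout replicate 1, 4 of the 7 were higher, with a median of 0.07. Ccnd3, cyclin D3, read 11548, 14381 and 12704 in knockout, against 9920, 9537 and 10576 in wild type, groups that did not overlap (log2 0.36, unadjusted p = 0.0275, limma adjusted p = 0.994). Ccnd2 differed by 0.26, also without overlap, Cdk2 by 0.32 and Cdk4 by 0.25. Of all kept probes, 6.17% had every knockout array above every wild type array. Of 14 inhibitors and antiproliferative genes 13 were kept, 12 higher on average, with a median of 0.18 (0.05 after quantile normalization) and 0 passing. Without wild type replicate 3 and knockout replicate 1, 10 of the 13 were higher, with a median of 0.19, against -0.03 over all kept probes. Cdkn1a, the inhibitor p21, read 71380, 101934 and 87045 in knockout, against 84095, 66988 and 41770 in wild type (log2 0.48), Cdkn2d differed by 0.27, Ccng2 by 0.21 and Btg1, also without overlap, by 0.19. All 11 genes listed as markers of isthmus progenitors were kept, though how specific they are to the isthmus was not tested. Of these, 10 were higher on average, with a median of 0.29 (6 higher and 0.16 after quantile normalization). The direction turned on leaving out wild type replicate 3 and knockout replicate 1, with 5 of 11 higher and a median of -0.10. Over all kept probes the median turned as well, from 0.10 to -0.03. Iqgap3, a scaffold protein of proliferating gastric progenitors, read 1726, 3097 and 2775 in knockout, against 2110, 1999 and 1753 in wild type (log2 0.33), with knockout replicates 2 and 3 above and replicate 1 below every wild type array. Sox9 differed in this, with knockout replicate 1 highest (123567, 79248 and 64896 in knockout, against 82284, 73118 and 51888 in wild type). Tuba1b differed by 0.46 and Sox2 by 0.29.

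Leaving out both arrays that stood apart left the phases unlike. With knockout replicates 2 and 3 against wild type replicates 1 and 2, the 13 G2 and mitosis members differed by 0.14 to 0.71 on the log2 scale (median 0.52, or 1.10-fold to 1.63-fold), against a median of -0.03 over all kept probes. The 11 S phase members differed by -0.25 to 0.34 (median 0.07). None of the 24 passed by limma (adjusted p of 0.175 or more), where 0.15% of all kept probes were called. At an unadjusted p under 0.05 there were 12 of 13 G2 and mitosis members, all but Ube2c, and 0 of 11 S phase members, against 5.13% of all kept probes higher in knockout. Knockout replicate 1 was the lowest array for 10 of these 13 G2 and mitosis genes, so leaving it out raised their knockout mean. These genes also moved together on the same arrays, so their number is not a number of independent results. The 2 knockout arrays lay above both wild type arrays for 13 of 13 and 2 of 11 genes, against 19.7% of all kept probes (13 of 13 and 4 of 11 after quantile normalization, against 25.8%). Cdca3 differed by 0.71 (SE 0.15), Birc5 by 0.67 (SE 0.15), Plk1 by 0.65 (SE 0.16) and Top2a by 0.63 (SE 0.18), whereas Mcm7 differed by -0.25 (SE 0.20) and Pcna by -0.18 (SE 0.13). With quantile normalization as well, a setting added after seeing the data, 12 of 13 and 2 of 11 had an unadjusted p under 0.05 (8.94% of all kept probes higher in knockout). In that setting 1 of the 43 kept member probes passed, the Birc5 probe ILMN_2681241 (log2 0.87, SE 0.10, limma adjusted p = 0.0412), where 0.327% of all kept probes were called. That probe read 2100, 4915 and 4520 in knockout, against 2880, 2447 and 2781 in wild type. The difference between the phases was itself not tested. In this comparison both knockout arrays have title numbers from 4 to 6 and both wild type arrays from 1 to 3, so genotype and title-number set cannot be told apart.

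**Figure D4:**
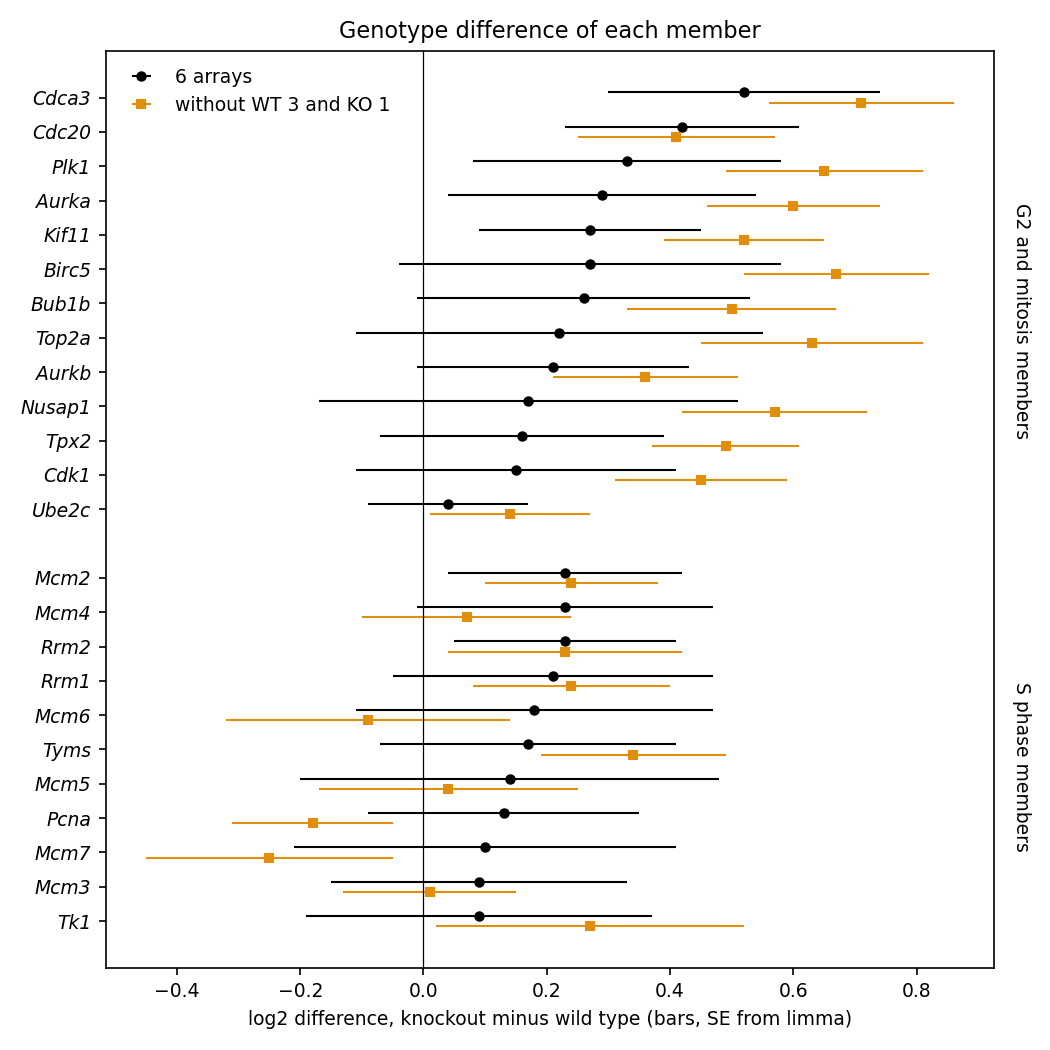
Log2 difference, knockout minus wild type, of each kept member (x axis), with SE from limma. Black circles use 6 arrays and orange squares leave out wild type replicate 3 and knockout replicate 1. Without these arrays the G2 and mitosis members lie between 0.14 and 0.71, and the S phase members between -0.25 and 0.34.

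The 2 arrays moved the phase medians by different amounts. Knockout replicate 1 was the lowest array for 10 of 13 G2 and mitosis members. Without this array alone their median was 0.56. An unadjusted p under 0.05 by limma was then found for 12 of 13, against 4.27% of all kept probes higher in knockout. Adjusted calls numbered 0 over all probes (0% called). The S phase median was then 0.32. Without wild type replicate 3 alone the G2 and mitosis median was 0.24 and the S phase median -0.01, with 0 of 24 at an unadjusted p under 0.05 (0.932% of all kept probes higher in knockout). With array weights, a fit resting largely on wild type replicate 2 (weight 38.8, at most 1.6 for any other array), 6 of the 24 genes passed by their brightest probe, Cdc20, Bub1b, Birc5, Plk1, Kif11 and Cdca3, with adjusted p between 0.0314 and 0.0476, where 8.02% of all kept probes were called.

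The titles number the arrays, and both genotypes occur among numbers 1 to 3 (knockout replicate 1, wild type replicates 1 and 2) and 4 to 6 (knockout replicates 2 and 3, wild type replicate 3). What that number means is not given in the sources used here. Within numbers 1 to 3 the median difference of the G2 and mitosis members was -0.31, and within 4 to 6 it was 0.55, with 0.04 and 0.29 over all kept probes. For the S phase members the medians were -0.22 and 0.70. The signs were thus opposite within the 2 sets for both phases, and the pooled difference did not hold within them. After quantile normalization the medians were -0.35 and 0.10 for G2 and mitosis and -0.29 and 0.29 for S phase. With the set as a block the medians were 0.13 for G2 and mitosis and 0.23 for S phase, against 0.17 over all kept probes, and 0 of 24 members passed (0.0133% of all kept probes) or had an unadjusted p under 0.05 (11.4% of all kept probes higher in knockout). Each within-set value rests on 1 array of 1 genotype.

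The low array for G2 and mitosis genes, knockout replicate 1, also had the highest summed levels of squamous and smooth muscle markers. On knockout replicates 1 to 3 the summed intensity of the 17 G2 and mitosis members with a probe was 40991, 75381 and 67803, and on wild type replicates 1 to 3 it was 53505, 46009 and 49076. The squamous list summed to 20516 to 1177225 in knockout and 16106 to 665277 in wild type, with 10 of 11 markers kept and Krt6a near background (at most 1192). Knockout replicate 1 and wild type replicate 2, its highest arrays, were the lowest arrays of their genotypes for the G2 and mitosis sum. Without both, a comparison added after seeing the data, the G2 and mitosis median was 0.50 and 5 of 13 members had an unadjusted p under 0.05, against 2.12% of all kept probes higher in knockout. Smooth muscle markers, 5 of 6 kept, summed to 43940 to 233489 in knockout and 35213 to 103079 in wild type, with Cnn1 near background. The S phase sum (13 genes) was 74843, 105361 and 81178 in knockout and 100112, 79006 and 56390 in wild type, lowest on wild type replicate 3, where the pancreatic list, 7 of 7 kept, was highest (74846 to 369058 in knockout, 100058 to 3920212 in wild type). The part of these tissues in the levels of the proliferation genes was not tested.

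**Figure D5:**
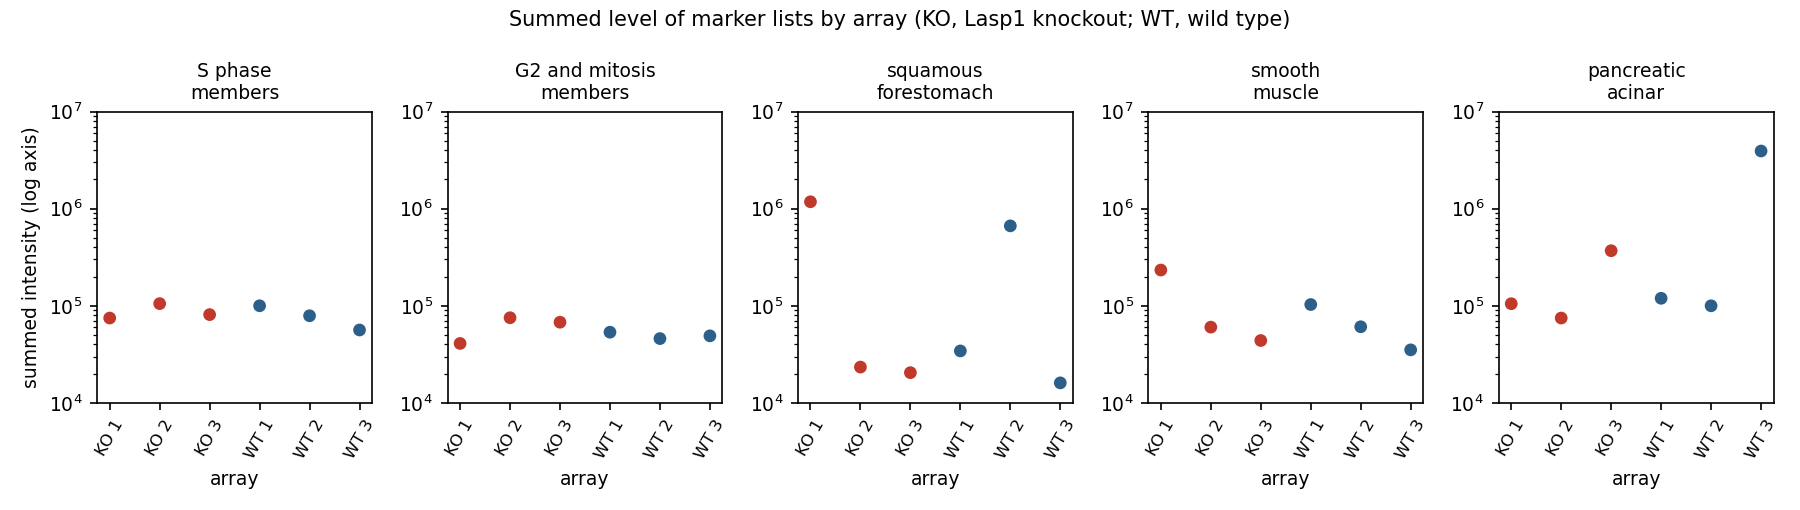
Summed intensity of the members of each phase and of markers of 3 other tissues on each array, on log axes of the same range, knockout red on the left and wild type blue on the right of each panel. The proliferation sums vary between 40991 and 105361, and the tissue sums between 16106 and 3920212.

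The remaining members gave no usable level. Ccne1, the cyclin of S phase entry, Hells, a chromatin remodeller, the cyclins Ccna2 and Ccnb2, the checkpoint kinase Bub1 and the Cdk-binding protein Cks2 had probes, but their brightest lay between 713 and 1123 on every array, below the filter and below the highest Y-linked value. Ccnb2 (802, 770 and 752 in knockout, against 713, 725 and 716 in wild type) and Ccna2 (877, 843 and 919 in knockout, against 963, 965 and 1057 in wild type) had groups that did not overlap, in opposite directions, within that background range. A further 15 member probes below the filter, 2 of them of Hells and Bub1, read 633 to 1039. No probe was named Mki67 or Ccnb1 in the annotation used here, so the proliferation marker Ki-67 and cyclin B1 were not analysed here. Among the 24 kept genes, 21 had a probe above every Y-linked probe on all 6 arrays, and Mcm3, Rrm2 and Ube2c did not.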

How the data were processed

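Per the labels, total RNA was amplified and labelled with an Ambion kit made for Illumina arrays. The authors deposited 1 linear intensity per probe and array, from the values scaled to a median of 1000 with no background subtraction (lowest value 541.9). Dividing out that scale put dim values on steps of 0.05 (tolerance 0.02 of a step). The sources used here do not name the scanner or its software.

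Probes were named from the platform annotation, updated through GRCm38.p6 gene identifiers (34885 with 1 symbol, 18 with several, 10378 with none). Log2 intensities of the 22640 probes whose mean lay above the median probe's (intensity 991) were fitted with lmFit and eBayes (limma 3.58.1 in R 4.3.3). Tests were two-sided, and a probe was called at a p-value under 0.05 after Benjamini-Hochberg adjustment over all kept probes. A gene is given by its brightest probe. Named genes were every member, the 4 of smallest p from each other list, and Lasp1. The members and lists were chosen with earlier results of these data known. The fit was tested on simulated data in which probes varied independently and changes were larger than those of the members. That test cannot speak to differences as small as theirs, or to arrays that shift many genes together. Promoter sequences are RefSeq's. Figures used matplotlib 3.10.9. Deviations of same-numbered replicates correlated at r of 0.04, -0.30 and 0.53, not over 0.1 in every pair, so they were not paired. Between genotypes, r was 0.04 to 0.55 for the 4 pairs within a title-number set and -0.56 to 0.17 for the 5 pairs across sets. Alternatives covered normalization, filters, weights, blocks and left-out arrays.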

Additional observations from a re-analysis of the deposited data

How the results depend on the processing

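The members gave 0 called probes as deposited (limma, with 0 of 24 genes at an unadjusted p under 0.05). They also gave 0 under quantile, cyclic loess and normexp normalization, without a filter or above the upper quartile only, with the title-number or replicate block, on leaving out any single array, and without wild type replicate 3 or 2 together with knockout replicate 1. Calls appeared with array weights (10 member probes, 1816 of all probes) and, in a setting added after seeing the data, with quantile normalization and without wild type replicate 3 and knockout replicate 1 (1 member probe, 74 of all probes). The cause was not tested. Over all probes the 2 calls became 34 without these arrays in the deposited values, 0 above the upper quartile, 0 with the replicate block, 0 without wild type replicate 2 and knockout replicate 1, and 0 to 3 on leaving out single arrays. Replicate numbers did not pair the samples. The replicate block left the medians at 0.26 for G2 and mitosis and 0.17 for S phase, and changed no member's call. Leaving out single arrays gave medians of 0.05 (without knockout replicate 2) to 0.56 (without knockout replicate 1) for G2 and mitosis, and -0.01 (without wild type replicate 3) to 0.35 (without wild type replicate 1) for S phase. Single members turned sign in 7 of 24 cases after quantile normalization, in 6 without wild type replicate 3 and in 7 without knockout replicate 2. With the mean of a gene's kept probes the medians were 0.21 for G2 and mitosis and 0.15 for S phase. The number of arrays and signal close to background limit the precision.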
